A study of Mus musculus with 6 samples.

Results

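The 10 genes described here encode parts of the machinery by which hippocampal neurons send, receive and shape synaptic signals. They are the glutamate receptor genes Grm2, Grik3 and Cacng8, the GABA receptor gene Gabra5, the potassium channel genes Kcnd2, Kcnip4 and Kcns2, and the presynaptic genes Doc2b, Slc17a6 and Nrxn3. They were taken by gene symbol from a table of 475 genes that the authors listed as differing between treatments, and all 10 were found. Sequencing covered hippocampal RNA, taken whole from one side of the brain, of 6 C57Bl/6 mice aged 4 months, 3 per group. Every mouse had been trained in contextual fear conditioning, had recalled the memory in the conditioning context and had then undergone spaced extinction. Daily injections contained either CI-994, an inhibitor of class I histone deacetylases, at 30 mg/kg, or vehicle (VEH), and the tissue was taken 1 h after the final session. The sex of the mice was not among the labels.

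Fast excitation in the hippocampus is carried by ionotropic glutamate receptors, whose number and kinetics are set by auxiliary subunits, while metabotropic glutamate receptors act through G proteins and often restrain release at the terminal. Ionotropic GABA receptors supply inhibition, and A-type potassium channels of the Kv4 family, which open near threshold, dampen the spread of action potentials into dendrites. Glutamate is loaded into vesicles by vesicular transporters, released under the control of calcium sensors, and delivered at contacts that neurexins help to organise.

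Each gene had 1 value per group in arbitrary units, made by the authors from the 3 libraries of that group, so no value below carries a replicate error and no depth per library was known. The p-values are those of the authors' deposited table and are not stated to be adjusted. All of them lie below 0.05, which is a property of the table and not a result about these genes. The log2 column, although headed as CI-994 against vehicle, equalled the log2 of vehicle over CI-994 in 475 of 475 genes. The direction of each gene below follows the column labels of the group values, and it would turn around if those labels were exchanged. The groups also differed in sex-linked transcripts. The Y-linked gene Ddx3y was at 7.73 units in vehicle and 0.0503 in CI-994, and Xist at 8.46 and 25.3 units. With 1 value per group, the part of this difference in the values below cannot be told apart from that of treatment. It was not tested. The sources used here do not say whether the unit is scaled to transcript length, so levels were compared between groups for the same gene. Values of different genes were set together only in the marker sums and in the search for like genes described below.

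All 10 genes were lower in CI-994 than in vehicle. Over the whole table, 276 genes were lower, 58.1% of the 475. Since the genes were chosen with earlier results known, their shared direction is given as a description. The CI-994 value was between 54.2% and 79.6% of the vehicle value, and the median log2 ratio of the 10 genes was -0.44, against -0.34 for all 475 genes and -0.50 for the 276 lower ones. Doc2b, Grm2 and Slc17a6 had the largest relative differences, with log2 ratios beyond -0.7. The other 7 genes lay close together between -0.48 and -0.33. With a pseudocount of 1 the ratio of Slc17a6 was -0.52, nearer to these 7. With no spread between mice, neighbours in this order cannot be said to differ.

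**Figure D1:**
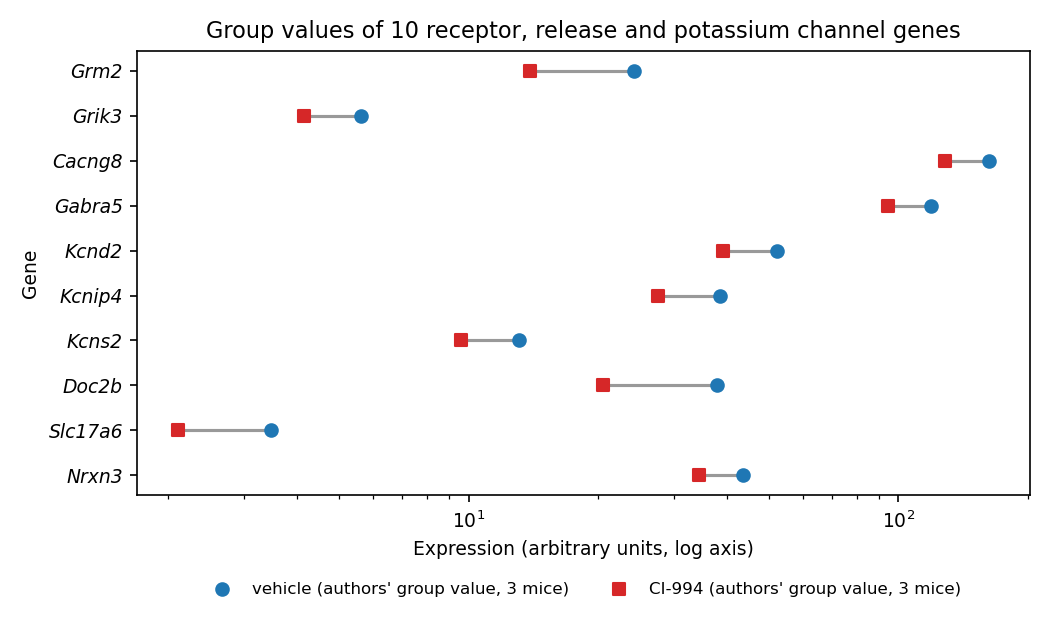
Group values of the 10 genes in vehicle (circles) and CI-994 (squares), in the authors' arbitrary units on a log axis; each point is the authors' single value for 3 mice, so there are no error bars. The CI-994 value lies to the left of the vehicle value for every gene, with the longest lines for Doc2b (37.8 to 20.5 units), Grm2 (24.2 to 13.9 units) and Slc17a6 (3.46 to 2.11 units).

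Among the glutamate receptor genes described here, Grm2 had the largest relative difference. It encodes mGluR2, a metabotropic receptor of glutamatergic terminals that lowers transmitter release and is well known from the mossy fibres of dentate granule cells. Grm2 was at 24.2 units in vehicle and 13.9 units in CI-994, so that the CI-994 value was 57.3% of the vehicle value (log2 ratio -0.80, p = 1.01e-05 in the authors' deposited table). This p was the 62nd smallest of the 475. Grik3 encodes GluK3, a low-affinity kainate receptor subunit. It was at 5.62 units in vehicle and 4.15 in CI-994 (log2 ratio -0.44, p = 0.0211 in the authors' deposited table). Cacng8 encodes TARP gamma-8, the auxiliary subunit that keeps AMPA receptors at hippocampal synapses and outside them. It was at 162.5 units in vehicle and 128.0 in CI-994 (log2 ratio -0.34, p = 0.0348 in the authors' deposited table), exactly the median ratio of the table.

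Of 39 genes for glutamate receptors and their auxiliary subunits, 4 were in the table, each of them lower, beside 58.1% lower over the table. Where a list holds genes described here, its count includes them, and they were chosen with earlier results known. On the glutamate receptor list, the one beside the 3 above was Cacng5, which encodes a TARP of another subtype and is also a CA2 marker. Cacng5 was at 8.05 units in vehicle and 2.96 in CI-994 (log2 ratio -1.44). Gsg1l, an AMPA receptor auxiliary subunit gene left off the list, was also lower, at 7.37 and 3.79 units (log2 ratio -0.96). The pore subunits of AMPA receptors (Gria1 to Gria4) and NMDA receptors (Grin1 and its partners), the remaining kainate receptor genes and Grm3, the closest relative of Grm2, were not among the genes of the table. Absence from it says only that a gene was not listed as changed there, as the sources used here do not say how many genes were tested.

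Gabra5 encodes the alpha-5 subunit of the GABA-A receptor, which mediates much of the tonic inhibition of hippocampal pyramidal cells. It was at 119.0 units in vehicle and 94.7 in CI-994 (log2 ratio -0.33, p = 0.0244 in the authors' deposited table), the smallest relative difference of the 10 genes. Of 26 GABA and glycine receptor genes, 2 were in the table, both lower, beside 58.1% lower over the table. The other was Gabrd, the delta subunit of extrasynaptic receptors and a dentate granule cell marker, at 16.1 and 9.48 units (log2 ratio -0.76).

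Both partners of an A-type potassium channel were lower. Kcnd2 encodes Kv4.2, the pore subunit of the dendritic A-type current, and was at 52.1 units in vehicle and 39.0 in CI-994 (log2 ratio -0.42, p = 0.00439 in the authors' deposited table). Kcnip4 encodes KChIP4, a calcium-binding protein that attaches to Kv4 channels and slows their inactivation. It was at 38.5 units in vehicle and 27.6 in CI-994 (log2 ratio -0.48, p = 0.0144 in the authors' deposited table). The CI-994 values were thus 74.8% and 71.8% of vehicle. The other Kv4 pore genes Kcnd1 and Kcnd3, the KChIP genes Kcnip1 to Kcnip3 and the further Kv4 partners Dpp6 and Dpp10 were not in the table. Kcns2 encodes Kv9.2, a silent subunit that forms no channel alone and modifies Kv2 channels. It was at 13.1 units in vehicle and 9.60 in CI-994 (log2 ratio -0.45, p = 0.0153 in the authors' deposited table).

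Of 40 voltage-gated potassium channel pore genes, 3 were in the table, each of them lower, beside 58.1% lower over the table. The third was Kcng2, another silent subunit that pairs with Kv2, at 18.4 and 13.99 units (log2 ratio -0.39). Among the remaining potassium channel genes of the table, 1 was lower and 2 were higher. Of 14 auxiliary subunit genes, Kcnip4 was lower and Kcne2 was higher, at 0.889 units in vehicle and 11.3 in CI-994. Of 41 other potassium channel genes the only one in the table, Kcnj13, was also higher, at 1.98 and 22.1 units. Kcne2 and Kcnj13 are both choroid plexus markers. None of 36 voltage-gated sodium, calcium and HCN channel genes was in the table.

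Doc2b showed the largest relative difference of the 10 genes. It encodes a high-affinity calcium sensor with paired C2 domains that promotes spontaneous and asynchronous transmitter release. Doc2b was at 37.8 units in vehicle and 20.5 in CI-994, so that the CI-994 value was 54.2% of the vehicle value (log2 ratio -0.88, p = 1.89e-08 in the authors' deposited table). Its p was the 35th smallest of the 475 and its ratio the 47th lowest. Of 55 genes for release machinery and calcium sensors 2 were in the table, both lower, beside 58.1% lower over the table. The second, Napa, encodes alpha-SNAP, which helps to take SNARE complexes apart, and was at 106.0 and 86.0 units (log2 ratio -0.30). The synaptotagmins and the close relatives Doc2a and Doc2g were not in the table. The list did not take in every related gene of the table. Among those left off it, Vamp8 (log2 ratio 0.80), Bzrap1 (0.70), Stxbp2 (0.70) and Rab26 (0.48) were higher. Stxbp6 (-1.03), Prrt2 (-0.32) and Ppfia4 (-0.32) were lower.

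Slc17a6 encodes VGLUT2, the vesicular glutamate transporter of many subcortical neurons, which in the hippocampus is known mostly from incoming fibres. It was at 3.46 units in vehicle and 2.11 in CI-994 (log2 ratio -0.72, p = 0.0186 in the authors' deposited table). Its p ranked 286th of the 475, and its ratio was the 75th lowest. Of 20 transmitter transporter genes on the list it was the only one in the table. Slc6a7, a plasma membrane transporter gene left off the list, was higher, at 18.9 units in vehicle and 25.4 in CI-994 (log2 ratio 0.42). Slc17a7, which encodes VGLUT1, the main vesicular transporter of hippocampal principal cells, was not in the table.

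Markers of cells and regions known to hold VGLUT2 neurons were given beside Slc17a6. Of 9 Cajal-Retzius cell markers 2 were in the table, Calb2 (log2 ratio -0.52) and Reln (-0.39), and their summed level was 24.8 units in vehicle and 17.8 in CI-994. Both genes are also interneuron markers, so neither is particular to Cajal-Retzius cells. Of 13 markers of thalamus and habenula 2 were in the table, Prkcd (-0.82) and Calb2 again, with a sum of 31.5 and 20.1 units. None of these markers was at 0. The defining genes Trp73 and Lhx5 of Cajal-Retzius cells and Tcf7l2 and Gbx2 of thalamus were not in the table, so the part of such cells in the Slc17a6 value was not tested.

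Nrxn3 encodes neurexin-3, a presynaptic adhesion protein made in many spliced forms from alternative promoters. Nrxn3 was at 43.4 units in vehicle and 34.4 in CI-994 (log2 ratio -0.33, p = 0.0400 in the authors' deposited table). This was the largest p of the 10 genes. Partners of neurexins that were in the table had log2 ratios further from 0, a difference that was not tested. Of 27 neurexin genes and partners the table held 4, each of them lower, beside 58.1% lower over the table. C1ql2, a secreted mossy fibre protein that binds neurexin-3, was at 52.5 and 10.5 units (log2 ratio -2.32), and its relative C1ql3 at 86.6 and 45.6 units (-0.92). Lrrtm4, a postsynaptic adhesion protein of dentate granule cells, was at 13.5 and 7.20 units (-0.91). The neuroligins were not in the table. The single Nrxn3 value covers all forms of the gene, for which GENCODE M21 lists 13 transcripts, 5 of them coding.

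**Figure D2:**
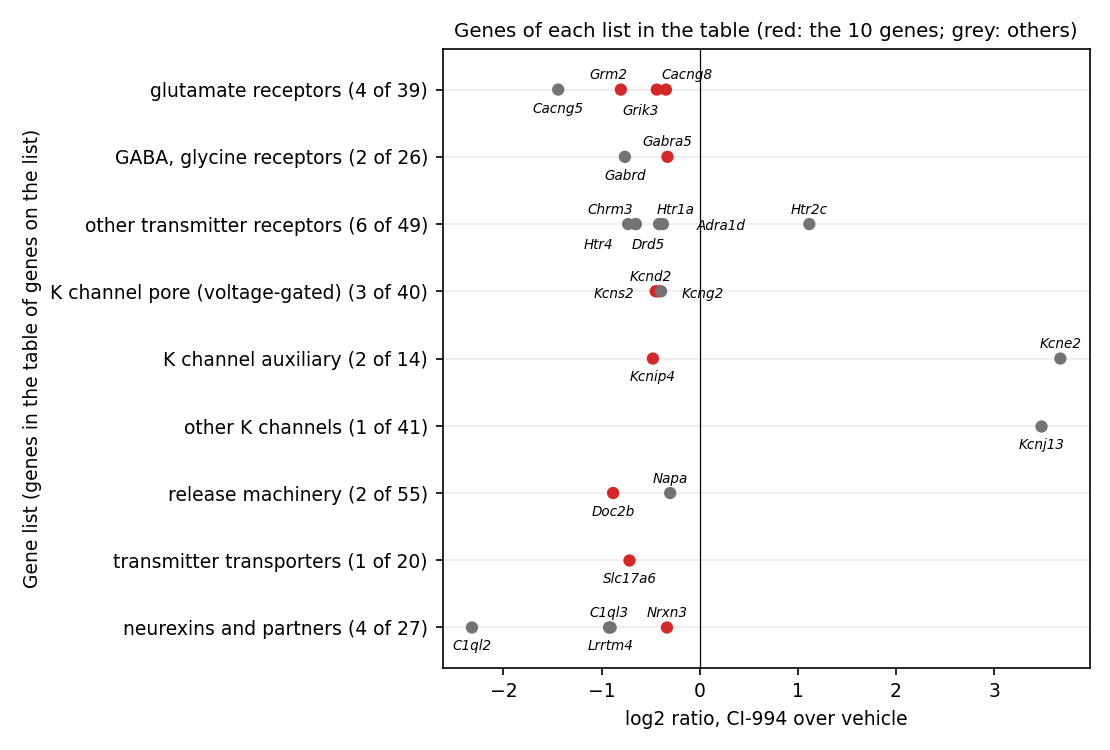
Ratio of CI-994 to vehicle on the log2 scale for each gene of 9 lists that was in the table, with the 10 genes in red and other genes of the list in grey; the axis label gives how many genes of the list were in the table. The points lie left of 0 in every list but for Htr2c (1.12), Kcne2 (3.67) and Kcnj13 (3.48), and each point is a single ratio with no error.

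Receptors for other transmitters are a group to which none of the 10 genes belongs. Of 49 genes for monoamine, acetylcholine, adenosine, histamine and cannabinoid receptors 6 were in the table, 5 lower and 1 higher, beside 58.1% lower over the table, and 43 were not in it. The lower ones were the serotonin receptors Htr4 (log2 ratio -0.73) and Htr1a (-0.41), the muscarinic receptor Chrm3 (-0.65), the dopamine receptor Drd5 (-0.65) and the adrenergic receptor Adra1d (-0.38). The higher one was Htr2c, a serotonin receptor that is abundant in choroid plexus epithelium, at 8.21 and 17.8 units. Over all 10 lists of receptor, channel, release and adhesion genes, 25 of 347 genes were in the table, 22 lower and 3 higher. Without the 10 genes described here these were 12 lower and 3 higher. The counts hold for these lists only, since some related genes of the table, in either direction, were on none of them.

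Cell type markers moved between the groups as well. The marker lists, like the 10 genes, were chosen with earlier results of these data known. How many markers were listed, and in which direction, is therefore given as a description. Among all 475 genes, 276 were lower and 199 were higher. None of the 10 genes was on a marker list, which says nothing about the cells that express them. Of 21 dentate granule cell markers 18 were in the table, all lower, led by C1ql2, Pdyn (log2 ratio -1.51) and Penk (-1.46), and their summed level was 679 units in vehicle and 402 in CI-994, a ratio of 0.592. The ratios of the 10 genes ran from 0.542 for Doc2b to 0.796 for Gabra5. Of 22 choroid plexus markers 21 were in the table, all higher, led by Tmem72 (4.00), Slc4a5 (3.99) and Steap1 (3.84), with a sum of 110 and 574 units. Markers of CA1 (3 of 10 in the table, sum 106 and 69.8 units) and of CA3 and CA2 (4 of 13, sum 281 and 181 units) were lower. Genes with high values weigh most in such sums, whose units may not be scaled to transcript length. Enpp2 of the choroid plexus list was at 75.3 and 377 units and Ncald of the dentate list at 204 and 145. Pcp4 of the CA3 and CA2 list was at 201 and 133 units and Wfs1 of the CA1 list at 71.0 and 42.6. No marker in the table was at 0 in either group. Of the interneuron markers in the table, 2 were lower, Calb2 and Reln, which were already given above for Cajal-Retzius cells, and Vip was higher (0.69), with sums of 34.6 and 33.7 units. Single genes stood for astrocytes (Aqp4, -0.34), oligodendrocytes (Hapln2, 0.72) and endothelium (Vwf, -0.51), and no microglial marker was in the table. In whole tissue, fewer cells of a type and less RNA per cell cannot be told apart, and the part of these shifts in the 10 genes was not tested.

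The support for single genes was uneven. At p up to 0.01 in the authors' deposited table, just 3 of the 10 genes were still listed as lower, Doc2b, Grm2 and Kcnd2, against 26.1% of the 475. At p up to 0.001 these were Doc2b and Grm2, that is 2 of 10, against 11.4%. An absolute log2 ratio of at least 0.5 was reached by 3 of the 10, Doc2b, Grm2 and Slc17a6, against 29.1% of the table. All 10 had at least 1 unit in both groups, and 55.8% of the table were lower with that level. The number of genes tested by the authors being unknown, the p-values were also adjusted by the Benjamini-Hochberg method over an assumed 10000, 15000 or 20000 genes. Under each assumption Doc2b and Grm2 passed at 0.05 and the other 8 did not, against 9.89%, 8.63% and 7.16% of the table. For 20000 genes the adjusted p was 1.08e-05 for Doc2b and 0.00326 for Grm2, while for 10000 genes that of Kcnd2 was 0.244. Each of the stricter settings rests on just 2 or 3 of these genes, and no result about the group is read from their share.

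**Figure D3:**
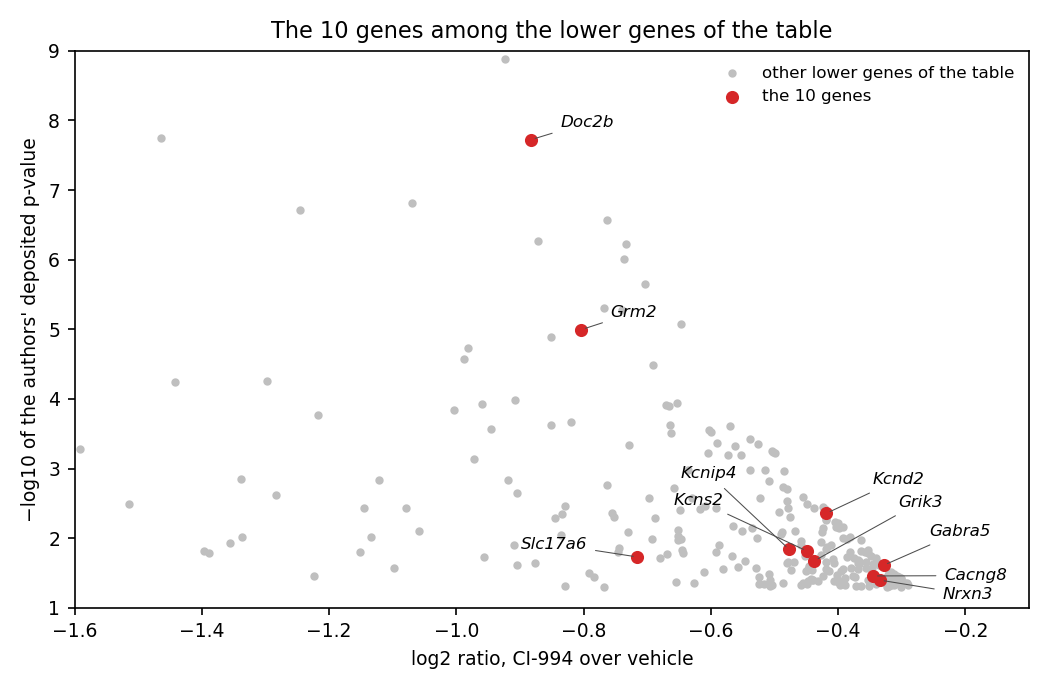
Ratio of CI-994 to vehicle on the log2 scale (horizontal) and the −log10 of the authors' deposited p-value (vertical) for lower genes of the table, with the 10 genes in red; 265 lower genes lie inside the plotted range and 11 outside it. Doc2b and Grm2 stand above the other red points, though not above all grey ones. Slc17a6 has a like ratio but a larger p, and the remaining red points lie at ratios from -0.48 to -0.33.

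For each of the 10 genes the closest gene of the table was sought by the summed difference in log2 ratio and in log2 vehicle value, over the 2 groups. The closest to Grm2 was Prox1, the transcription factor of dentate granule cells, at 23.1 and 12.6 units (log2 ratio -0.87, distance 0.136). The closest to Doc2b was Stxbp6, a SNARE-binding protein on the dentate marker list, at 37.5 and 18.4 units (-1.03, distance 0.157). Nrxn3 was closest to Slit1, an axon guidance ligand, at 43.5 and 34.1 units, and Gabra5 to Napa. The closest pair of all was Kcns2 and Txnip, at a distance of 0.00872. The remaining neighbours were Diap2 for Grik3, Prrt2 for Cacng8, Lrrc10b for Kcnd2, Slc7a14 for Kcnip4 and Cd109 for Slc17a6. The search sets deposited values of different genes side by side although they may not be scaled to transcript length, so such closeness describes the table and carries no error.

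The 10 genes span very different lengths of the genome. In mm9 coordinates, as in the authors' table, Nrxn3 lies on chromosome 12 from 89961319 to 91573373 and spans 1612 kb, the second longest locus of the 475. Kcnip4 lies on chromosome 5 from 48780741 to 49676898 (896 kb, the fifth longest) and Kcnd2 on chromosome 6 from 21166108 to 21679805 (514 kb). Grik3, on chromosome 4 from 125168074 to 125391417, spans 223 kb, and Gabra5, on chromosome 7 from 64642641 to 64765379, spans 123 kb. These 5 genes are among the 123 of the table with loci of 100 kb or more. Over all 475 genes 276 (58.1%) were lower, and over these 123 long loci 92. Such loci made up 5 of the 10 genes, 25.9% of the table and 32.7% of the other lower genes.

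The other 5 loci were below 100 kb, where the median over the whole table was 29.6 kb. Slc17a6 lies on chromosome 7 from 58877199 to 58926496 (49.3 kb), Doc2b on chromosome 11 from 75582591 to 75609559 (27.0 kb), Cacng8 on chromosome 7 from 3394458 to 3415366 (20.9 kb), Grm2 on chromosome 9 from 106546865 to 106558440 (11.6 kb) and Kcns2 on chromosome 15 from 34767135 to 34772092 (4.96 kb). Of these 5 loci Doc2b, Grm2 and Slc17a6 had the lowest ratios of the 10 genes. Kcns2 (log2 ratio -0.45) and Cacng8 (-0.34) lay in the range of the 5 genes of 100 kb or more, from -0.48 to -0.33. Over the lower genes of the table the median log2 ratio was -0.47 for loci of 100 kb or more and -0.50 for all, a difference that was not tested.

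**Figure D4:**
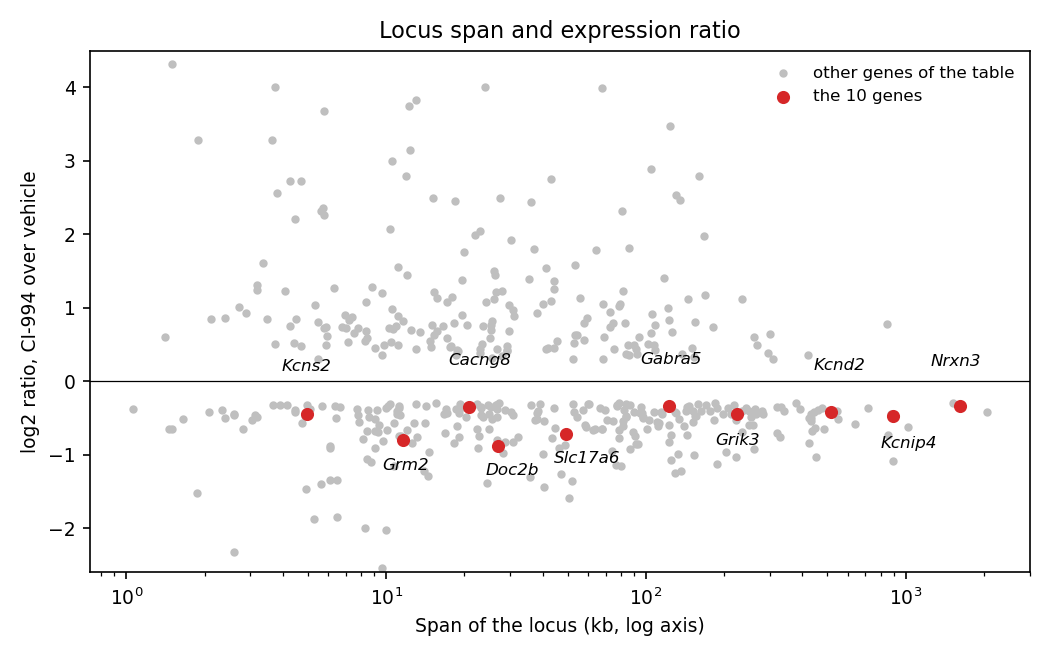
Span of each locus in kb (log axis) against the CI-994 to vehicle ratio on the log2 scale, with the 10 genes in red and the other genes of the table in grey; 2 genes lie below the plotted range. Nrxn3, Kcnip4 and Kcnd2 sit at the right end with ratios of -0.33, -0.48 and -0.42, Doc2b, Grm2 and Slc17a6 lie lower among the shorter loci, and the short loci Kcns2 and Cacng8 lie level with the long ones.

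Promoter windows, 250 bases before to 50 after a transcript start, were available from RefSeq (GRCm38.p6) for 8 of the 10 genes, with 12 windows in all because Kcnip4 and Slc17a6 have 2 each and Nrxn3 has 3. Their GC content ran from 43.0% for a Slc17a6 window to 82.0% for Grik3, with a median of 55.2%, against 61.7% for the windows of the lower genes of the table and 52.7% for all 32851 windows. CpG dinucleotides numbered 2 to 50 per window, with a median of 7.5, against 18 in the lower genes and 7 in all windows. Shown here are the window of Grm2, which had the lowest ratio of the receptor genes among the 10, and one window each of the channel partners Kcnd2 and Kcnip4, whose values were similar in ratio. Capitals mark matches to any of the motifs named below, of which the GC box alone occurred in these windows.
Grm2 (chr9:106656060-106656359, minus strand, GRCm38.p6): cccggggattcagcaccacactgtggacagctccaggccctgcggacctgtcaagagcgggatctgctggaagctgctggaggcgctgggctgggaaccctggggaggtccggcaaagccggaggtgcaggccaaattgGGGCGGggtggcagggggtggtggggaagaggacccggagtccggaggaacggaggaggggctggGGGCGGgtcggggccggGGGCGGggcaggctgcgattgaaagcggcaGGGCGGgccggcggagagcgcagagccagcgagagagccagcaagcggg
Kcnd2 (chr6:21215096-21215395, plus strand, GRCm38.p6): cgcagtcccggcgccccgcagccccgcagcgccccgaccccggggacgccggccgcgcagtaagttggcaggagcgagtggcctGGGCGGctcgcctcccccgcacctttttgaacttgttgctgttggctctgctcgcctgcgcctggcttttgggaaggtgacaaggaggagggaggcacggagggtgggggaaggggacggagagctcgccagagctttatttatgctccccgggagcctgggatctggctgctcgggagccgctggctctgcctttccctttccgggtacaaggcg
Kcnip4 (chr5:49285610-49285909, minus strand, GRCm38.p6): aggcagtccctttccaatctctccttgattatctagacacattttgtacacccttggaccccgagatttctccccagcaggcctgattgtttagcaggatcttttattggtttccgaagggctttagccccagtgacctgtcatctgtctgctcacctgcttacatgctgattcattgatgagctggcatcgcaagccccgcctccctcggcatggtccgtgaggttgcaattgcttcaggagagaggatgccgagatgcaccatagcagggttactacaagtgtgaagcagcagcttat

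The channel partners differed in these windows. The Kcnd2 window was 68.7% GC with 26 CpG dinucleotides and 1 GC box, whereas the Kcnip4 window shown was 51.0% GC and the second Kcnip4 window 59.7% GC, each with 7 CpG dinucleotides and no match. The Grm2 window was 72.0% GC with 22 CpG dinucleotides and 4 GC boxes. The letters searched on both strands were GGGCGG for the GC box, TGACGTCA for the cAMP response element and TGACG for its half-site, which lies within the full element, GCGTGGGCG for the EGR motif, CACGTG for the E-box and TATAAA for the TATA box. A GC box was in 5 of the 12 windows, of Grm2, Grik3, Kcnd2, Nrxn3 and Slc17a6, and in 35.7% of all windows and 58.2% of those of lower genes. The cAMP response element was in none of the 12 and in 1.79% of all windows, and its half-site was in 1 window, of Slc17a6, and in 20.8% of all. The EGR motif, E-box and TATA box were in none of the 12, and in 0.612%, 7.15% and 13.6% of all windows. A match or its absence describes these letters in this window and nothing more.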

How the data were processed

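Total RNA of mouse hippocampus was sequenced in 3 vehicle and 3 CI-994 mice, which the series' design text calls biological replicates. The submitters' processing notes name TopHat, Cuffdiff and build mm9. The sources used here give no versions, annotation, filters, strand handling or normalisation. For each of 475 genes the deposited table holds, per the file headers, an expression signal in arbitrary units for either group, the log2 of their ratio, and a p-value. The authors' log2 values had the sign opposite to their header in all 475 genes (tolerance 0.001), and 6 p-values were given as 0. With no values per mouse, no count model, replicate error, depth or test across mice could be had, and the designed fallback, a description of both group values with the authors' p, was used. Per-sample values in columns of other samples numbered 0. Ratios are log2 of CI-994 over vehicle with no pseudocount.

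The 10 genes, the 10 role lists and 11 marker lists were chosen with earlier results of these data known. Named beside them were all role list genes in the table, the 3 largest absolute ratios of the dentate, choroid, thalamic and Cajal-Retzius lists, and the closest gene to each member. Of the other marker lists, Aqp4, Hapln2 and Vwf, each the only gene of its list in the table, and Vip, Ddx3y, Xist and the map neighbours were named after their values were seen. So were the genes left off the role lists, Gsg1l, Slc6a7, Vamp8, Bzrap1, Stxbp2, Rab26 and Ppfia4. Enpp2, Pcp4, Wfs1 and Ncald were likewise named later, as large parts of the sums of their lists. List symbols were matched to RefSeq names, and 0 matched only through an older name. Transcripts were counted in GENCODE M21. Coordinates of genes are mm9 and those of promoters GRCm38.p6, and the builds were not mixed. The motif search was tested with the GC box alone, planted on either strand in simulated sequences of A and T. The other motifs were not tested in this way. Alternatives were p thresholds, a minimum ratio, a minimum of 1 unit, assumed numbers of tested genes, pseudocounts and the header's direction. Python 3.11.15, numpy 2.4.6, pandas 2.3.3 and matplotlib 3.10.9 were used.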

Additional observations from a re-analysis of the deposited data

How the results depend on the processing

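No paired analysis was possible because the table holds 1 value per group and none per mouse, and for the same reason no replicate could be left out. Of the 10 genes listed as lower, 3 were left at p up to 0.01, 2 at 0.001, 3 beyond 0.5 in absolute log2 ratio, and 2, 2 and 2 with an assumed 10000, 15000 and 20000 tested genes, because each setting admits fewer genes. All 10 were left with at least 1 unit in both groups. With directions taken from the log2 header, 0 of the 10 were lower, by construction, and the log2 ratios became 0.80 for Grm2, 0.44 for Grik3, 0.34 for Cacng8, 0.33 for Gabra5, 0.42 for Kcnd2, 0.48 for Kcnip4, 0.45 for Kcns2, 0.88 for Doc2b, 0.72 for Slc17a6 and 0.33 for Nrxn3. A pseudocount of 1 or 0.1 turned 0 of the 10 directions, with ratios from -0.85 to -0.33 and from -0.88 to -0.33. Slc17a6 moved most, from -0.72 to -0.52 with a pseudocount of 1. At p up to 0.01 the genes of the lists in the table were 2 lower for glutamate receptors, 1 for GABA and glycine receptors, 3 lower and 1 higher for other transmitter receptors, 1 lower for potassium channel pores, 0 lower and 1 higher for their auxiliary subunits, 1 higher for other potassium channels, 1 lower for release machinery, 0 for transporters and 3 lower for neurexins and partners. The table gives no depth, so how far depth limits these values is unknown.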

Other observations

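Table genes lying near the 10 genes on the mm9 map did not share one direction. Within 1 Mb of Grm2 were Sema3b, Abhd14b and Dock3, and the nearest, Abhd14b, at 192 kb, was higher in CI-994 (4.24 and 7.12 units, log2 ratio 0.75). Dock3 (-0.40) was lower and Sema3b (1.56) was higher. Kcns2 has Nipal2 as its direct neighbour in RefSeq's gene order, 159 kb away in mm9. Nipal2 was at 0.866 units in vehicle and 1.64 in CI-994 (log2 ratio 0.92). Matn2, the other table gene within 1 Mb of Kcns2, was lower, as was Kcns2 (log2 ratios -0.42 and -0.45). The nearest table gene was also higher for Grik3 (Col8a2, log2 ratio 2.50, a choroid plexus marker) and Cacng8 (Leng8, 0.89), and it was lower for Doc2b (Serpinf1, 11.8 and 6.59 units, -0.84) and Slc17a6 (Nell1, 20.8 and 14.8 units, -0.49). Gabra5, Kcnd2, Kcnip4 and Nrxn3 had 0 other table genes within 1 Mb. These neighbours were chosen by position after the values were seen, and no test was made of them.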
